A study of Mus musculus with 6 samples.

Results

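The 10 genes Atf4, Ddit3, Trib3, Atf3, Atf5, Cebpb, Cebpg, Ppp1r15a, Sesn2 and Ddit4 are transcription factors and direct effectors of the integrated stress response. They were chosen by symbol from a table of 22219 genes, and all 10 were found there. All 10 also passed the filter on low counts, which left 17570 genes for testing. Expression was measured by RNA sequencing of testes from mice on day 10, with 3 libraries from germ cell conditional knockouts of Eif5 (cKO) and 3 control libraries. The cKO animals came from a cross of Eif5fl/fl mice with Stra8-Cre mice. The labels do not give the genotype of the controls, so what the Cre alone or the floxed alleles alone might do cannot be told apart from the loss of Eif5. Cre from the Stra8 promoter acts in germ cells, and the Sertoli, Leydig, myoid, endothelial and immune cells of the organ keep the gene. The study's title names DNA repair defects, sustained endoplasmic reticulum (ER) stress and the death of progenitor spermatogonia as the processes of interest.

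The integrated stress response starts when a kinase phosphorylates the initiation factor eIF2, which holds back translation of most messages and favours that of Atf4, whose upstream reading frames shield its coding sequence in unstressed cells. eIF5 is the GTPase-activating protein that acts on eIF2 during start codon selection. ATF4 then activates genes for amino acid supply, and under lasting stress the factor CHOP, encoded by Ddit3, which is known for promoting cell death. ATF4, CHOP, ATF3, ATF5, C/EBPβ and C/EBPγ are basic leucine zipper proteins that bind DNA as dimers with one another. TRIB3, GADD34 (encoded by Ppp1r15a), Sestrin 2 and REDD1 (encoded by Ddit4) feed back on the pathway or restrain growth through mTORC1. RNA levels do not show the translational step, so the values below are message levels and not protein.

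Start-proximal sequence was searched because ATF4 dimers bind the C/EBP-ATF response element (CARE) and several of these genes are known targets. It is printed for Atf4, Ddit3, Atf3, Ppp1r15a and Trib3, each of which had a match to mark. This choice did not follow the expression results below, and the CCAAT matches of Sesn2, Cebpg, Atf5 and Ddit4 are not printed. Nor is the CCAAT match of Atf3, which began at base 6 of its transcript. The windows, from RefSeq on GRCm38.p6, run from 250 bases before to 50 bases after an annotated start, and the 10 genes had 11 windows, since Atf5 had a pair of starts. The build used for the deposited table is not given in the sources used here. A CARE (TGATGNAA, either strand) was in the windows of 2 of the 10 genes, Atf3 and Trib3, and in 3.97% of all 32851 windows. A cyclic AMP response element (TGACGTCA, which reads the same on both strands) was in the window of 1 gene, Ppp1r15a, and in 1.79% of all windows. The pentamer CCAAT was in the windows of 7 of the 10 on either strand and in 37.4% of all windows. Capitals mark the CARE in Atf3 and Trib3, the cyclic AMP response element in Ppp1r15a and CCAAT or its complement in Atf4 and Ddit3. The first 4 sequences end at the base before the annotated start, and the one of Trib3 lies just inside the transcript. All are printed 5′ to 3′ on the gene's strand.
Atf4, chr15:80255064-80255183, plus strand: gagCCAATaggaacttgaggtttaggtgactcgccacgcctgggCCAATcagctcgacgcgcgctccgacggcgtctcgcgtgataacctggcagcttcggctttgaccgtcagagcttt
Ddit3, chr10:127290693-127290792, plus strand: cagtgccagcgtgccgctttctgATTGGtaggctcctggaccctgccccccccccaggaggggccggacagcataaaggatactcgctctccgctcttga
Atf3, chr1:191183334-191183463, minus strand: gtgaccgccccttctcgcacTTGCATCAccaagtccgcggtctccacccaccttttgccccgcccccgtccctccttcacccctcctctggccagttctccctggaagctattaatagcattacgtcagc
Ppp1r15a, chr7:45526269-45526328, minus strand: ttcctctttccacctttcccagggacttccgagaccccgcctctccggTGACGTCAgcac
Trib3, chr2:152344027-152344050, minus strand: aggtTTACATCAgccgggcgggga

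The CARE of Atf3 began 110 bases upstream of the start, and the element of Ppp1r15a began 12 bases upstream of it. The 8 letters in Trib3 began at base 15 of the transcript. These matches describe the letters in the windows only.

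The deposited values are read counts divided by 1 size factor per library and are called normalised read counts here. Recovered totals ran from 32555443 to 48015318 reads in cKO libraries and from 33631996 to 48409550 reads in control libraries. Whether each library is a different animal is not in the labels, and the p-values below may therefore reflect technical spread only. Eif5 had 8548, 8982 and 9574 normalised read counts in cKO testes, against 11964, 10551 and 11187 in control testes, with a log2 fold change of -0.31 (SE 0.0947, limma adjusted p = 0.024). That call ended without cKO replicate 1 or 2 (adjusted p = 0.13 and 0.0875). The deleted part of Eif5 was not separated from the rest of the gene. Of the 17570 genes tested, 1692 were called higher and 1829 lower in cKO, which is 9.63% and 10.4%, at a limma adjusted p under 0.05. Without cKO replicate 1, 2 or 3 the number called higher was 916, 1005 and 938. With scaling to library totals the split was 806 higher and 2494 lower, and with scaling to 18 Sertoli cell markers it was 63 higher and 9232 lower. Over all genes the Sertoli scaling put the median at -0.42 on the log2 scale, against 0.01 with the deposited factors.

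Message for the core factors of the response was higher in cKO testes: Atf4 and Ddit3 rose about 1.6-fold and 1.5-fold, and Trib3 rose about 2.1-fold. Cebpb, Atf5 and Sesn2 rose by less, Atf3 and Ddit4 missed the threshold, and Cebpg and Ppp1r15a had nearly equal means in the groups. In all, 6 of the 10 were called higher by limma, where 9.63% of all genes were, and 0 were called lower, where 10.4% were. Without cKO replicate 1 or 2 the number called higher was 3, where 916 and 1005 of all genes tested were. At an unadjusted p under 0.05 the counts were 8 higher and 0 lower, where 16.7% of all genes were higher and 16.7% lower. The edgeR test called 4 higher and 0 lower, where 8.96% and 10.6% of all genes were. DESeq2 called 7 higher and 0 lower, where 11.2% and 12% of the 16888 genes to which it gave an adjusted p were. The median log2 fold change of the 10 was 0.37, against 0.01 for all genes tested. Because the 10 were picked with earlier results of these data known, these counts describe them and do not test them as a set. The summed level of the 10 was 27145 to 28272 normalised read counts in cKO libraries and 19267 to 22268 in control libraries.

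**Figure D1:**
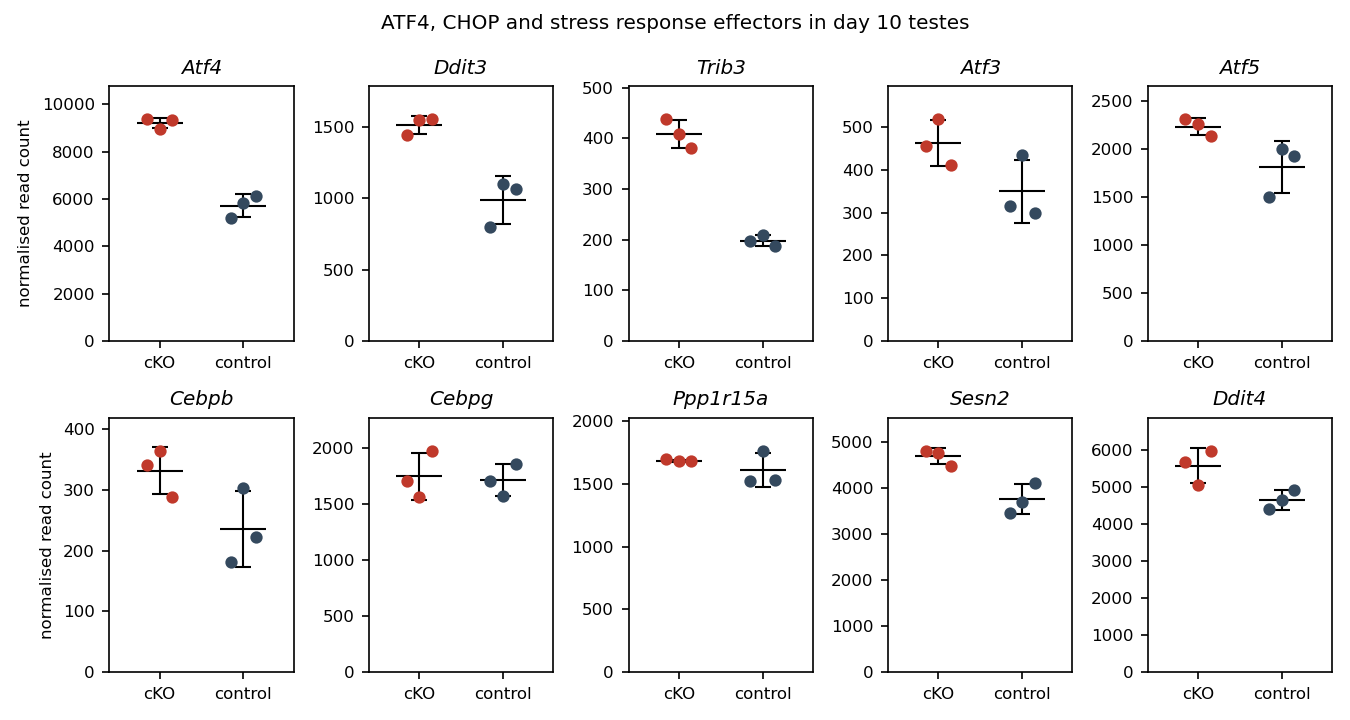
Normalised read counts of the 10 effector genes (y axes, linear from 0) in the 3 cKO and 3 control libraries; points are libraries, the wide tick is the group mean and the bars are 1 SD. Atf4, Ddit3 and Trib3 have all cKO points above all control points, while Cebpg and Ppp1r15a have overlapping groups.

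Atf4, the transcription factor at the centre of the response, had 9372, 8971 and 9325 normalised read counts in cKO testes and 5179, 5843 and 6116 in control testes. The groups did not overlap, and the lowest cKO library lay far above the highest control. The log2 fold change was 0.69 (SE 0.0932, 95% interval 0.50 to 0.89, limma adjusted p = 2.72e-05). Atf4 was called higher under all 15 alternative settings tried, with log2 fold changes of 0.26 to 0.75, the lowest being that under the Sertoli scaling (adjusted p = 0.0367).

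Ddit3, which encodes CHOP, had 1446, 1552 and 1556 normalised read counts in cKO testes and 799, 1099 and 1070 in control testes. The cKO libraries lay close together and above every control, and control replicate 1 was the lowest by a wide margin. This gave a log2 fold change of 0.63 (SE 0.118, 95% interval 0.39 to 0.88, limma adjusted p = 0.00083), and it was 0.48 (adjusted p = 0.00267) without control replicate 1. The call held under 14 of the 15 alternative settings and ended under the Sertoli scaling, where the log2 fold change was 0.20 (adjusted p = 0.195). At its 3′ end the exons of Ddit3 share 68 bases, 3.97% of their merged length in GENCODE M21, with the methionyl-tRNA synthetase gene Mars on the opposite strand. Mars itself had a log2 fold change of 0.02 (limma adjusted p = 0.917), and whether the counting used strand is not given in the sources used here.

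Trib3 encodes a pseudokinase that binds ATF4 and dampens its activity. It had 438, 408 and 382 normalised read counts in cKO testes and 197, 209 and 188 in control testes. The controls were tight, and every cKO library was well above them. Its log2 fold change was 1.04 (SE 0.149, 95% interval 0.73 to 1.35, limma adjusted p = 5.86e-05), and 110 of the 17570 genes had a larger one. Only 43 genes, or 0.245%, were both called and at least 2-fold higher, and Trib3 was among them. It was called higher under all 15 alternatives, with log2 fold changes of 0.61 (Sertoli scaling, adjusted p = 0.00324) to 1.09.

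Among the partner factors, Cebpb, a C/EBP factor that dimerises with ATF4 and CHOP, had 341, 364 and 288 normalised read counts in cKO testes and 181, 303 and 222 in control testes. The groups overlapped, with control replicate 2 above cKO replicate 3. The log2 fold change was 0.51 (SE 0.18, 95% interval 0.14 to 0.89, limma adjusted p = 0.0485), and edgeR did not call it (adjusted p = 0.057). The call ended in 4 of the 6 fits that left out 1 library, those without cKO replicate 1 or 2 or control replicate 1 or 3 (adjusted p = 0.123, 0.161, 0.202 and 0.0967). The log2 fold change was 0.34 without control replicate 1. Exons of Cebpb share 312 bases, 20.7% of their merged length, with Tmem189 on the opposite strand, and Tmem189 had a log2 fold change of 0.17 that was not called (adjusted p = 0.322).

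Atf5, a factor whose translation is controlled like that of Atf4, had 2315, 2261 and 2141 normalised read counts in cKO testes and 1503, 2006 and 1935 in control testes. All cKO libraries were above all controls, but control replicates 2 and 3 lay close beneath them. Atf5 had a log2 fold change of 0.31 (SE 0.108, 95% interval 0.09 to 0.54, limma adjusted p = 0.0455), and edgeR did not call it (adjusted p = 0.0524). Without control replicate 1 it was 0.18 (adjusted p = 0.184), and the call also ended without cKO replicate 1, 2 or 3 (adjusted p = 0.141, 0.118 and 0.0732). Its exons share 82 bases, 4.11% of their merged length, with Il4i1 and Nup62 on the opposite strand, neither of them called (adjusted p = 0.36 and 0.858).

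Atf3, which represses or activates targets depending on its partner, had 457, 519 and 412 normalised read counts in cKO testes and 315, 435 and 299 in control testes. Control replicate 2 lay above cKO replicate 3, so the groups overlapped. Its log2 fold change of 0.42 (SE 0.156, 95% interval 0.09 to 0.74) did not pass (limma adjusted p = 0.0642). Without cKO replicate 2 it was 0.33 (limma adjusted p = 0.238). Atf3 was called under 2 of the 15 alternative settings, the replicate block (limma adjusted p = 0.043) and the fit without control replicate 2 (0.58, adjusted p = 0.0151). In the same library Cebpb was also the highest of the controls.

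Cebpg, a partner of ATF4 that lacks an activation domain of its own, had 1711, 1564 and 1979 normalised read counts in cKO testes and 1705, 1578 and 1863 in control testes. The libraries of the groups were interleaved. The log2 fold change was 0.03 (SE 0.106, 95% interval -0.19 to 0.25, limma adjusted p = 0.892), so rises of the size seen for Atf4 or Ddit3 lay outside its interval. Its exons share 73 bases, 1.3% of their merged length, with Gm44836 on the same strand.

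Of the effectors, Ppp1r15a encodes GADD34, which brings protein phosphatase 1 to eIF2 and so ends the response. It had 1691, 1675 and 1679 normalised read counts in cKO testes and 1523, 1760 and 1531 in control testes. The cKO values lay within the range of the controls. Its log2 fold change was 0.07 (SE 0.0974, 95% interval -0.13 to 0.27, limma adjusted p = 0.655). Its exons share 12 bases with Tulp2 on the opposite strand, a gene that was itself higher in cKO (log2 fold change 0.37, limma adjusted p = 0.00539).

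Sesn2 encodes Sestrin 2, a leucine-binding inhibitor of mTORC1. It had 4806, 4765 and 4483 normalised read counts in cKO testes and 3463, 3701 and 4115 in control testes. The groups did not overlap. Sesn2 had a log2 fold change of 0.32 (SE 0.0929, 95% interval 0.13 to 0.51, limma adjusted p = 0.0192), and the call ended without cKO replicate 1 or 2 (adjusted p = 0.0858 and 0.0799) and with library totals (0.23, adjusted p = 0.0964).

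Ddit4 encodes REDD1, which restrains mTORC1 through the TSC complex and also responds to hypoxia and glucocorticoids. It had 5696, 5067 and 5990 normalised read counts in cKO testes and 4404, 4652 and 4930 in control testes. All cKO libraries were above all controls, cKO replicate 2 by a small margin. Its log2 fold change of 0.26 (SE 0.0941, 95% interval 0.06 to 0.45) did not pass (limma adjusted p = 0.0572). It was called under 2 of the 15 alternative settings, DESeq2 (adjusted p = 0.0365) and limma without control replicate 3 (0.30, adjusted p = 0.0446). It was not called by edgeR (adjusted p = 0.0719) or by limma without cKO replicate 3 (0.21, adjusted p = 0.243).

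Counting the genes by separation, 6 of the 10 had all cKO libraries above all controls, a pattern seen in 18.3% of the genes tested, and none had the reverse, seen in 18.4%. Control replicate 1 was the lowest control for 7 of the 10 genes. Within the cKO group cKO replicate 1 was the highest library for 5 of the 10, cKO replicate 3 for 3 and cKO replicate 2 for 2.

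**Figure D2:**
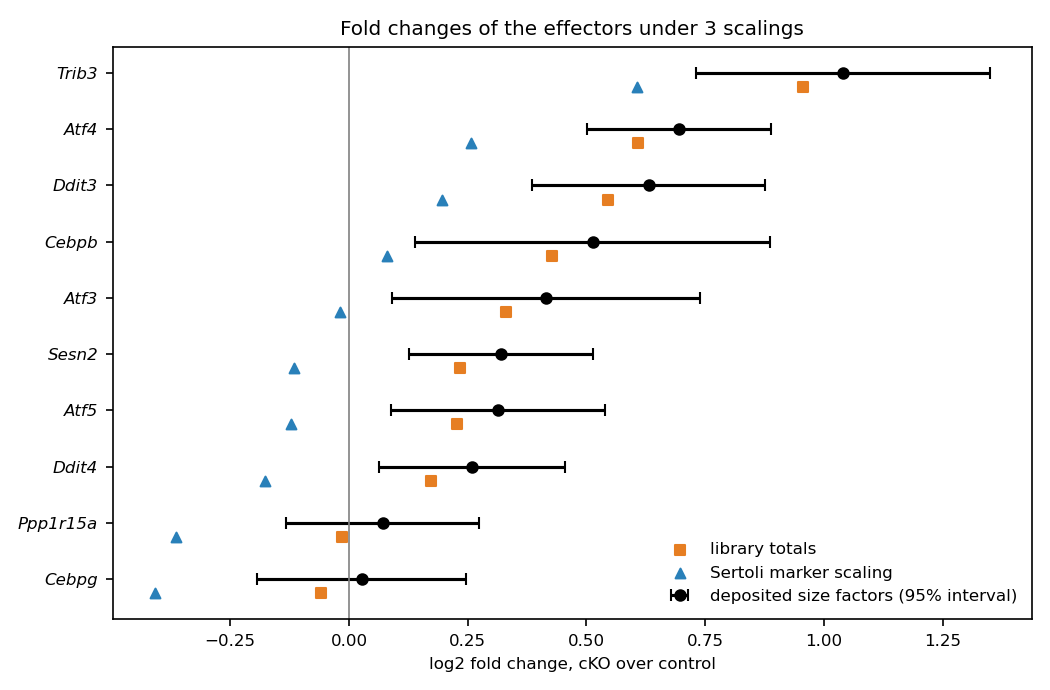
Log2 fold change of each effector gene, cKO over control (x axis), with the deposited size factors (black, bars are limma's 95% interval), library totals (orange squares) and scaling to Sertoli cell markers (blue triangles). Trib3, Atf4 and Ddit3 lie furthest to the right under each scaling, and Atf3, Sesn2, Atf5, Ddit4, Ppp1r15a and Cebpg fall below 0 under the Sertoli scaling.

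Under the Sertoli scaling 2 of the 10 genes were called higher, Atf4 (0.26) and Trib3 (0.61), and 2 were called lower, Ppp1r15a (log2 fold change -0.36, limma adjusted p = 0.0121) and Cebpg (-0.41, adjusted p = 0.00609). The background of that scaling is 0.359% higher and 52.5% lower, and its median over all genes is -0.42. Of the other effectors, Ddit3 (0.20) and Cebpb (0.08) kept a positive sign, and Atf3 (-0.019), Sesn2 (-0.12), Atf5 (-0.12) and Ddit4 (-0.18) turned negative, none of them called. With library totals 3 of the 10 were called higher (Atf4, Ddit3 and Trib3), against a background of 4.59%.

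A ratio between genes of the same library does not depend on how libraries are scaled, so each effector was also set against Atf4. The log2 ratio of Trib3 to Atf4 was -4.41, -4.45 and -4.60 in cKO testes and -4.70, -4.79 and -5.01 in control testes. Trib3 was thus higher relative to Atf4 in all 3 cKO libraries, by 0.35 on the log2 scale (exact 2-sided permutation p = 0.1, adjusted p = 0.15). The ratio of Ddit3 to Atf4 overlapped between the groups and differed by -0.06 (exact permutation p = 0.4, adjusted p = 0.45). For Sesn2, Atf5, Ddit4, Ppp1r15a and Cebpg the ratio to Atf4 was lower in every cKO library than in every control, by -0.37, -0.38, -0.44, -0.62 and -0.67 in that order (exact permutation p = 0.1 and adjusted p = 0.15 for each). For Atf3 (-0.28, exact permutation p = 0.2) and Cebpb (-0.18, exact permutation p = 0.5) the groups overlapped. With 3 libraries against 3 the smallest p this test can give is 0.1, so none of the 9 ratios could pass the threshold. All 9 ratios share Atf4 and so are not independent of each other.

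**Figure D3:**
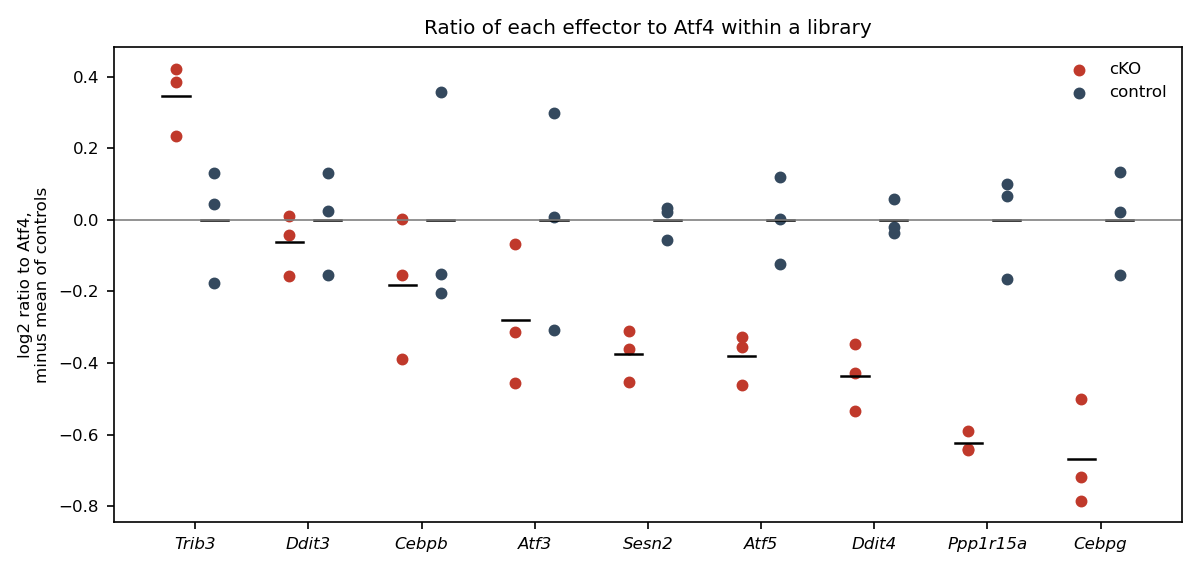
Log2 ratio of each effector gene to Atf4 in the same library, minus the mean of the 3 controls (y axis), with 3 cKO and 3 control libraries per gene and the group mean as a black line. Trib3 has cKO above control, Ddit3, Cebpb and Atf3 overlap, and Sesn2, Atf5, Ddit4, Ppp1r15a and Cebpg have cKO below control.

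Levels can be compared between genes only per length, taken here as the longest protein-coding transcript in GENCODE M21. Per kilobase, Atf4 was the most abundant of the 10, with 5346 ± 127 normalised read counts in cKO testes and 3312 ± 279 in control testes (SD, n = 3 each). Ddit4 came next, with 3182 ± 269 in cKO testes and 2656 ± 150 in control testes on the same scale (SD, n = 3 each). Ddit3, Sesn2 and Atf5 followed, and the ranges of these 3 were apart from each other in the cKO libraries but overlapped each other in the controls (1111 ± 186, 1082 ± 94.95 and 999 ± 150 per kilobase; SD, n = 3 each). The length used for Ddit3 was 0.89 kb, while its merged exons hold 1713 bases, so its place among these 3 depends on the length chosen. Ppp1r15a and then Cebpg were lower and set apart from their neighbours in both groups. Trib3 was the least abundant, with 202 ± 13.8 per kilobase in cKO testes and 97.6 ± 5.32 in control testes (SD, n = 3 each). In cKO libraries its range reached that of Cebpb (220 ± 25.7 per kilobase), whose range overlapped that of Atf3 (233 ± 27.0), and in control libraries Trib3 lay below both.

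The genes whose profile over the 6 libraries was closest to Atf4, outside the 10, were Sfxn1, which encodes a mitochondrial serine transporter, the lysophosphatidic acid receptor gene Lpar1 and 2610035D17Rik. Their root mean square distance from Atf4 in mean-centred log2 levels was 0.0350, 0.0370 and 0.0420. Closest to Ddit3 were the insulin receptor substrate gene Irs2, Fam222a and Gnas, the gene of a stimulatory G protein subunit, with distances of 0.0510, 0.0562 and 0.0631. Closest to Trib3 were Islr2, Tox2 and Zfp365, at larger distances of 0.118, 0.118 and 0.120. Among the 10 themselves the closest pairs were Atf5 with Sesn2 (0.0941), Atf4 with Ddit3 (0.101), Sesn2 with Ddit4 (0.103) and Atf3 with Cebpb (0.124). These distances describe 6 libraries that differ by genotype.

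Of 40 matched ATF4 target genes, most of them for amino acid supply and tRNA charging and the rest including Chac1, Eif4ebp1 and the hormone genes Gdf15 and Fgf21, 17 were called higher and 1 lower, against 9.63% and 10.4% of all genes, and the median log2 fold change was 0.28. Of the aminoacyl-tRNA synthetase genes in the list, only Cars was called higher (0.43, limma adjusted p = 0.00691) and only Eprs lower, and the others were not called. The glutathione-degrading enzyme gene Chac1 had 151, 182 and 136 normalised read counts in cKO testes and 19.2, 23.95 and 13.1 in control testes (log2 fold change 2.95, limma adjusted p = 8.06e-07). Slc7a3, a cationic amino acid transporter gene, had 128, 115 and 124 in cKO testes and 12.6, 23.95 and 15.3 in control testes (log2 fold change 2.73, limma adjusted p = 4.35e-06). Both were several times higher in every cKO library than in any control, a larger separation than that of any of the 10 effectors. The neutral amino acid transporter gene Slc1a4 (0.73), the arginine and lysine transporter gene Slc7a1 (0.63) and the proline synthesis gene Pycr1 (0.62) followed, as log2 fold changes. Eprs, which encodes glutamyl-prolyl-tRNA synthetase, was the only target called lower (-0.36, limma adjusted p = 0.015). Aldh1l2 had a lower log2 fold change that was not called (-0.50, limma adjusted p = 0.178). Cars, Eprs and Aldh1l2 were outside the naming rule and were picked after their values were seen. No target was called lower without cKO replicate 1 or 3. Without cKO replicate 1, 2 or 3 the number called higher was 7, 11 and 11, where 916, 1005 and 938 of all 17570 genes were. With library totals it was 8 (4.59% of all genes), and under the Sertoli scaling it was 2 with 10 lower (0.359% and 52.5% of all genes).

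Of 15 tested paralogues of the effectors, 5 were called higher and 0 lower by limma, against 9.63% and 10.4% of all genes. By family, Trib2 rose (0.31, limma adjusted p = 0.0334) while Trib1 was not called (0.20, adjusted p = 0.216). Sesn1 rose (0.29, limma adjusted p = 0.0351), and Sesn3 was not called (-0.25, adjusted p = 0.125). Ddit4l, the paralogue of Ddit4, rose (0.46, limma adjusted p = 0.00339). It had 1893, 2247 and 2288 normalised read counts in cKO testes and 1493, 1533 and 1644 in control testes, so its groups did not overlap. Cebpa (0.43, adjusted p = 0.0128) and the Atf3 relative Jdp2 (0.44, adjusted p = 0.0284) rose by limma, and Cebpd was not called (0.18, adjusted p = 0.578). Ppp1r15b, the constitutive eIF2 phosphatase subunit gene, was not called (-0.0033, limma adjusted p = 0.986). Nor were Atf1 (0.02), Atf2 (-0.11), Atf6 (-0.05), Atf6b (-0.10), Atf7 (0.10) or Batf3 (-0.02), as log2 fold changes. Cebpe did not pass the filter. Under the Sertoli scaling Trib2, Sesn1 and Cebpa turned negative (-0.13, -0.14 and -0.00103) and none of the 5 was called higher, while 7 of the 15 were called lower, where 52.5% of all genes were, and with library totals 2 paralogues were called higher. In each fit without 1 library 2 or 3 paralogues were called higher, where 916 to 1764 of all genes were. Ddit4l was the only one of the 5 called in all 6 of these fits.

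The lists around the effectors are given against the same 9.63% of all genes called higher and 10.4% called lower by limma. With 1 library left out, 916 to 1764 of all genes were called higher and 1278 to 1792 lower. Among 12 genes of the eIF2 kinases and eIF2 pathway, the amino acid-sensing kinase gene Eif2ak4 was called higher (0.32, limma adjusted p = 0.0354; -0.12 and not called under the Sertoli scaling). The eIF2 subunit gene Eif2s1 (-0.32) and the eIF2B subunit gene Eif2b3 (-0.48) were called lower, and the list median was -0.14. In the fits without 1 library 0 to 3 of the 12 were called higher and 0 to 3 lower, with 3 higher without control replicate 1, and each of these 3 genes lost its call in at least 1 fit. Of 23 ER folding genes of the ATF6 and XBP1 arms, 1 was called higher and 3 lower, with a median of -0.08. Without control replicate 1, 6 of the 23 were lower, where 1421 of all genes tested were. Herpud1, a gene of ER-associated degradation with ATF4 among its regulators, rose (0.44, limma adjusted p = 0.0062; 0.01 and not called under the Sertoli scaling). Sdf2l1, an ER chaperone partner, had 632, 617 and 700 normalised read counts in cKO testes and 1114, 1302 and 1321 in control testes (log2 fold change -0.93, limma adjusted p = 7.24e-06), and Creld2 fell by 0.58 on the log2 scale. Of the 23, 6 had all cKO libraries below all controls, Sdf2l1 and Creld2 among them, and 3 had all cKO libraries above. Over all genes tested those shares were 18.4% and 18.3%.

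Of 8 genes of death and oxidation that CHOP is linked to, 0 were called higher and 1 lower by limma, where 9.63% and 10.4% of all genes were. At an unadjusted p under 0.05 the counts were 1 higher and 2 lower, where 16.7% of all genes were in each direction. The edgeR and DESeq2 tests each called 0 higher and 1 lower. The list was not divided by whether CHOP raises or lowers a gene, so these counts do not measure CHOP activity. Ero1l, the ER oxidase gene known as a CHOP target, was called lower (-0.35, limma adjusted p = 0.0119). Its call ended without cKO replicate 2 or 3 (adjusted p = 0.0752 and 0.0534). Of 16 p53 targets, Zmat3 was called higher (0.32; not called by edgeR) and Trp53inp1 lower (-0.47). Of 17 glucocorticoid and hypoxia genes, Pdk1 (0.34) and P4ha1 (0.32; not called by edgeR, adjusted p = 0.0549) were called higher and Tsc22d3 lower (-0.30). The signs of Zmat3, Pdk1 and P4ha1 turned negative under the Sertoli scaling (-0.11, -0.09 and -0.11). Leaving out 1 library ended the call of Zmat3, Pdk1, P4ha1 and Tsc22d3 in at least 1 fit each, but not that of Trp53inp1. Of 22 immediate early and heat shock genes, which also respond to tissue handling, 5 were called higher and 0 lower by limma. Over all genes those shares were 9.63% and 10.4%. Hspa1a (0.60), Jun (0.49) and Nr4a1 (0.42) were among the 5. The 17 not called ran from Fos (-0.30) to Ier3 (0.34), and the list median was 0.16. Nr4a1 was called neither by edgeR (adjusted p = 0.0575) nor by DESeq2 (adjusted p = 0.052). The summed level of the 22 genes was 35597 to 39256 normalised read counts in cKO libraries against 28311 to 34146 in controls. Jund had the highest level of the 22, with means of 13320 in cKO and 10105 in control testes. Its groups overlapped (log2 fold change 0.41, limma adjusted p = 0.0288). Fos, Ier3 and Jund were outside the naming rule. Leaving out 1 library gave 1 to 5 of the 22 called higher, where 916 to 1764 of all genes were. The number was 1 without cKO replicate 1 or control replicate 3, and Jun kept its call in all 6 of these fits. The part of that response in the values of Atf3, Cebpb and Ppp1r15a was not tested.

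**Figure D4:**
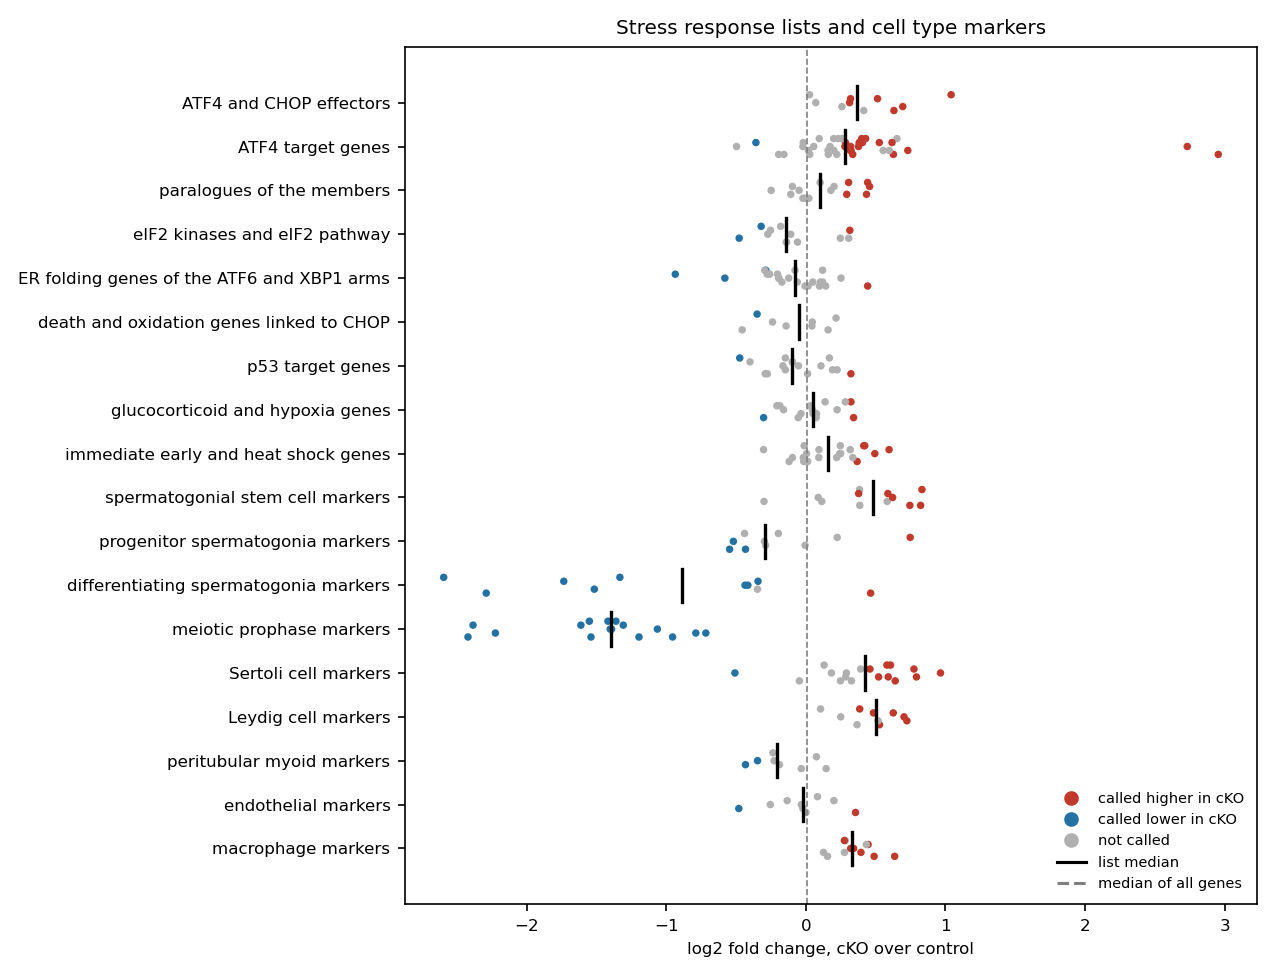
Log2 fold change, cKO over control (x axis), of every tested gene in the effector list, the 8 related lists and the 9 lists of cell type markers (rows); red is called higher, blue called lower, grey not called, black lines are list medians and the dashed line is the median of all genes. The effector and ATF4 target genes lie mostly to the right of the line, as do Sertoli, Leydig, macrophage and stem cell markers, and meiotic markers lie far to the left.

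Markers of several cell types differed between the groups, and in whole tissue fewer cells of a type and less RNA per cell cannot be told apart. Over all genes tested, limma called 9.63% higher and 10.4% lower, and with library totals 4.59% and 14.2%. With 1 library left out, it called 916 to 1764 genes higher and 1278 to 1792 lower. No marker of the 9 cell type lists was at 0 in any library. Meiotic prophase markers summed to 11020 to 12782 normalised read counts in cKO libraries and 27905 to 32332 in controls, and all 16 were called lower. Of the markers of differentiating spermatogonia 8 of 10 were lower and 1 higher, with Stra8 at a log2 fold change of -1.73, and of progenitor markers 3 of 10 were lower and Tcl1 was higher (0.75). The number of progenitor markers called lower was 5 without cKO replicate 2 or control replicate 3, 2 without cKO replicate 3 and 6 with library totals. Spermatogonial stem cell markers summed to 11625 to 12962 in cKO libraries and 9352 to 10319 in controls. Of the 12, 6 were higher, among them Shisa6 (0.83), Bcl6b (0.82) and Lhx1 (0.74, called by neither edgeR nor DESeq2). By limma 0 were called lower, while edgeR and DESeq2 each called 1 lower. Limma also called 1 lower with library totals and 1 with the Sertoli scaling. Zbtb16 had the lowest log2 fold change of the list (-0.30, limma adjusted p = 0.0575). It was outside the naming rule. Sertoli markers summed to 548953 to 613096 in cKO libraries and 352688 to 488709 in controls, with 9 of 18 higher, 1 lower and a median log2 fold change of 0.43. Leydig markers summed to 25933 to 30602 in cKO libraries and 17514 to 23021 in controls, with 6 of 10 higher and a median of 0.50. Of the macrophage markers 7 of 12 were higher (10190 to 11535 in cKO libraries, 7817 to 9913 in controls), but 0 were called with library totals and 0 without cKO replicate 1 or 2. Of peritubular myoid markers 2 of 8 were lower (0 without cKO replicate 1 or 2, 4 without control replicate 1). The 9 endothelial markers included 1 lower, Egfl7 (-0.48), and 1 higher, Cdh5 (0.36, with -0.08 after Sertoli scaling), close to the shares of all genes. The Sertoli, Leydig and stem cell (0.48) medians all exceeded those of the effectors (0.37) and of the ATF4 targets (0.28). The part of these marker differences in the values of the 10 genes was not tested.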

How the data were processed

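RNA was measured in 3 cKO and 3 control libraries of day 10 testes, grouped by sample title. Total RNA went into an mRNA library kit, per the labels' protocols. The submitters' processing notes list StringTie 1.3.1 and RSEM without saying what each did. No source used here gives the aligner, build, annotation or strand setting. Although the file name says raw counts, the deposited values are a scaled signal: in each column 100% were whole multiples of 1 step (tolerance 1e-06), whose inverse matched the size factor recomputed by the median of ratios. Of recovered counts of 1 to 20, 75.1% to 80.9% per library were even, so single reads were not independent events.

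The test was limma 3.58.1 (eBayes with trend, 2-sided) on log2(value + 2) over 17570 genes kept by filterByExpr (minimum count 10), adjusted by Benjamini-Hochberg, in R 4.3.3. The scale understates changes of low genes. edgeR 4.0.16 and DESeq2 1.42.0 on recovered reads were alternatives, and edgeR called 1575 genes higher and 1857 lower. The limma and edgeR steps were also run on simulated counts. Those counts were drawn independently and without the excess of even counts described above, so they do not cover that feature. Their outcome is not used here. No pair of libraries of a group was a duplicate (chi-square per degree of freedom 10.2 or more).

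The 10 genes and the lists were chosen with earlier results of these data known. Of 270 list entries 269 matched by symbol or RefSeq synonym. Named genes were the 10, Eif5, all tested paralogues, up to 5 ATF4 targets and up to 3 genes of each other list with the largest called fold changes, and the genes closest to Atf4, Ddit3 and Trib3. Other alternatives were library totals, TMM factors, scaling by the median ratio of the Sertoli markers, pseudocounts of 0.5 and 10, no filter, a replicate block and leaving out each library.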

Additional observations from a re-analysis of the deposited data

How the results depend on the processing

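TMM factors, both pseudocounts, no filter, edgeR, DESeq2 and the replicate block left the counts of the 10 genes and of all genes called within 1.5 times those reported, and the calls that ended under them for single genes among the 10 were those of Cebpb (no filter, edgeR) and Atf5 (edgeR, replicate block). With library totals 3 of the 10 and 806 genes in all were called higher. With the Sertoli scaling 2 of the 10 were called higher and 2 lower, and 63 genes in all higher and 9232 lower; it subtracts the rise of the Sertoli markers from every gene. Leaving out 1 library gave 3 to 7 of the 10 and 916 to 1764 genes called higher, with fewer samples in each fit.

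Signs turned under the Sertoli scaling for Atf3 (-0.019), Atf5 (-0.12), Sesn2 (-0.12), Ddit4 (-0.18), Ppp1r15a (-0.36), Cebpg (-0.41), Trib1 (-0.23), Trib2 (-0.13), Sesn1 (-0.14), Cebpa (-0.00103), Cebpd (-0.25), Atf1 (-0.41), Atf7 (-0.33), Eif2ak4 (-0.12), Zmat3 (-0.11), Pdk1 (-0.094), P4ha1 (-0.11), Nr4a1 (-0.014) and Cdh5 (-0.080). With library totals they turned for Cebpg (-0.059), Ppp1r15a (-0.015) and Atf1 (-0.064). When 1 library was left out, the log2 fold change ran from -0.065 to 0.10 for Cebpg, -0.053 to 0.034 for Ppp1r15b, -0.10 to 0.35 for Cebpd, -0.52 to 0.39 for Batf3, -0.098 to 0.016 for Atf6 and -0.0097 to 0.20 for Atf7, none of them called in those fits. The log2 ratio of Ddit3 to Atf4 changed by -0.14 to 0.0015 in the same way.

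The replicate numbers gave no sign of pairing: deviations from the group means correlated at -0.038, -0.0023 and 0.055 between libraries of number 1, 2 and 3. Between libraries of different number the correlations were -0.074 to 0.074. With 3 libraries a group this check cannot exclude pairing. With the replicate block 6 of the 10 were called higher, with Atf3 called (adjusted p = 0.043) and Atf5 not (adjusted p = 0.052), and 1535 genes were higher and 1771 lower in all. With 3 libraries a group, limma's 95% intervals of the 10 genes were 0.39 to 0.75 wide in full on the log2 scale.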
